A study of Homo sapiens with 12 samples.

Results

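The genes described here are the matrix metalloproteases (MMP), the ADAM and ADAMTS proteases and the tissue inhibitors of metalloproteases (TIMP), in the clear cell renal carcinoma line 786-O with and without knockdown of RARRES2. They were taken by symbol, as every row of the deposited table named MMP, ADAM or ADAMTS plus a number, or TIMP1 to TIMP4, without pseudogenes. The families were chosen with earlier results of these data known. This gave 65 of 58381 genes; ADAM5 and ADAM6 also matched by name and were left out as pseudogenes. The set holds 22 MMP, 4 TIMP, 20 ADAM and 19 ADAMTS genes. Of these, 39 were expressed, which here means a value of at least 1 CPM in at least 3 of 12 libraries. CPM is here a read count scaled to library depth and by a factor for each library (TMM).

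786-O is an established human kidney cancer line. Its cells were infected with lentivirus carrying a hairpin against GFP, which has no target in these cells and is the control (shGFP). The other cells carried a hairpin against RARRES2, which encodes chemerin, a secreted protein, and 3 such hairpins were used: shRARRES2_1, shRARRES2_2 and shRARRES2_3. There were 3 libraries in each of the 4 groups, and every library came from infected cells. Whether replicates were separate infections or cultures is not in the labels, and the spread behind each p-value may thus be a technical one.

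MMPs are secreted or membrane-bound zinc enzymes that cut collagens and other matrix proteins, and most are made as inactive precursors. ADAMs are membrane proteins; the active ones release the outer parts of growth factors and receptors from the cell surface, and others lack the catalytic residues and act in adhesion. ADAMTS enzymes are secreted and cut proteoglycans, procollagens and other matrix proteins. TIMPs bind these enzymes and block them, and TIMP2 also takes part in the activation of pro-MMP2 by MMP14 at the cell surface. In kidney carcinoma and other tumours these families are studied for their part in invasion and growth factor release.

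RARRES2, the targeted gene, had 808.8, 483 and 469 CPM in the shGFP libraries and 37.5 to 92.6 CPM in the 9 hairpin libraries, so each hairpin library lay far below each control. Depth was 12599424 to 23594195 reads on genes, and 3 reads, taken as the floor of detection, were worth 0.131 to 0.223 CPM. Some libraries stood apart from their groups. Replicates 2 and 3 of shRARRES2_1 were nearly alike, though they differed by more than sampling noise. shGFP replicate 2 lay closest to shRARRES2_3 replicate 2, and shRARRES2_1 replicate 1 to shRARRES2_3 replicate 1. RARRES2 itself went with the labels in the first pair, at 483 CPM in the control library against 49.7 CPM in its hairpin partner. In the second pair it was at 40.5 and 44.2 CPM and cannot tell the hairpins apart, and whether libraries were exchanged between hairpins was not tested. Of the renal markers, PAX8, VIM, KRT8, KRT18, EPAS1 and CDH2 were present in every library, while CA9 stood at only 0.212 to 3.40 CPM. PAX8 ranged over 238.6 to 593.8 CPM, VIM over 262 to 2105, KRT8 over 131 to 4050.5 and KRT18 over 45.9 to 594 CPM. CDH2 ranged over 124 to 403 CPM and EPAS1 over 72.6 to 1008.5 CPM. In the limma fit described below, EPAS1 was called lower with shRARRES2_2 (log2 change -2.78, adjusted p = 0.0107). Summed over 14 keratinocyte markers, shGFP replicate 2 had 650.4 CPM and the others 66.3 to 287.3 CPM. LAMB3, at 37.2 to 266.8 CPM, made up much of the sum in several other libraries. In shGFP replicate 2, KRT5, KRT14 and KRT6A had 168.7, 119.3 and 99.3 CPM, against at most 8.18, 5.10 and 4.20 CPM elsewhere. Of the 14, only LAMB3 and S100A2 were highest in other libraries. Whether other cells were present in that control library was not tested. The 8 leukocyte markers summed to 1.01 to 2.97 CPM, with PTPRC at no more than 0.148 CPM, the 7 endothelial markers to 1.69 to 7.63 CPM and the 8 fibroblast markers to 4.23 to 83.2 CPM. All fibroblast markers but LUM had their highest value in shGFP replicate 2, among them COL1A1 at 27.5 CPM and COL3A1 at 18.3 CPM. LUM was highest in shRARRES2_2 replicate 1, at 70.2 CPM.

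The upstream sequences of 4 members that the results below turn on are shown first. MMP7 and MMP10 of the chromosome 11 MMP cluster had values among their highest in the 2 libraries with high MMP1, and a sequence was at hand. MMP7 was also high in shGFP replicate 1, and MMP10 stayed below the threshold for expressed genes. ADAMTS12 had the largest positive log2 change of the ADAMTS genes with shRARRES2_2. ADAMTS10 was lower in all hairpin libraries. Each sequence is the 250 bases before a RefSeq gene start (build GRCh38.p14), read 5′ to 3′ on the gene's strand, which is the minus strand for all 4. They cover chr11:102530748-102530997, chr11:102780629-102780878, chr5:33891991-33892240 and chr19:8610716-8610965. Capitals mark TGANTCA, a 7-base pattern that reads the same on both strands. It allows any middle base and is thus looser than the AP-1 consensus, which has C or G there. The middle base was G in MMP7 and A in MMP10 and ADAMTS12.
MMP7: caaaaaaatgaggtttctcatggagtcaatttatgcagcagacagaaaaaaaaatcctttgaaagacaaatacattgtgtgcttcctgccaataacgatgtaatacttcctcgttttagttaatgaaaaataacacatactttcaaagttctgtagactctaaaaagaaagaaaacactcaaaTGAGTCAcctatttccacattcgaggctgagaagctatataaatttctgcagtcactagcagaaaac
MMP10: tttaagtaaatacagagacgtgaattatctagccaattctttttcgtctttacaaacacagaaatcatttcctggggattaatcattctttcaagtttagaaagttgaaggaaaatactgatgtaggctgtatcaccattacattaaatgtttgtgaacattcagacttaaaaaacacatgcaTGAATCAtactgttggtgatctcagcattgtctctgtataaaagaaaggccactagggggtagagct
ADAMTS12: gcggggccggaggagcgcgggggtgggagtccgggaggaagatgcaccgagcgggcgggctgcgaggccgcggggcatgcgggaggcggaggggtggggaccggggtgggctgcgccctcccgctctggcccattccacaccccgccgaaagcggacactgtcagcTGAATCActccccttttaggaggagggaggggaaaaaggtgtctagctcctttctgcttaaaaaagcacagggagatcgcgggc
ADAMTS10: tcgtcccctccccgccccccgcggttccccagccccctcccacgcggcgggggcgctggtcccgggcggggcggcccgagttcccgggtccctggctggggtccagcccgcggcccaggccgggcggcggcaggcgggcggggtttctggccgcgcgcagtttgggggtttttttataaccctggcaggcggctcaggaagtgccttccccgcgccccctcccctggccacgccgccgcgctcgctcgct
The pattern began 67 bases before the start in MMP7 and in MMP10 and 84 bases before it in ADAMTS12. It was found in 2308 of 35116 such windows over all genes (6.57%). Of the members, 38 had an entry, 1 of them (ADAMTS10) with 2 starts, and 4 of 39 windows (10.3%) held the pattern. For ADAMTS10 only 1 of its 2 windows is shown, and neither held the pattern. For the MMP cluster on chromosome 11 it was 3 of 5 windows (60%), those of MMP7, MMP10 and MMP20, and for the remaining members 1 of 34 (2.94%). MMP1, MMP3, MMP12 and MMP13 of this cluster had no entry, and the cluster was picked after its values were seen. Of the windows of expressed members, 2 of 22 (9.09%) held the pattern. A match is a description of the letters and not a bound site.

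The expressed members were 12 of 22 MMP, 3 of 4 TIMP, 11 of 20 ADAM and 13 of 19 ADAMTS genes, and 24 of the 65 reached 1 CPM in all 12 libraries. Levels ran from MMP2 and MMP14 at the top to MMP25 and ADAM28, which reached 1 CPM in only 3 libraries. Just outside the threshold were MMP3, MMP10 and ADAMTS4, each with 1 CPM in 2 libraries. ADAM20, ADAM21, ADAMTS17 and TIMP3 had it in 1 library. Below 1 CPM everywhere but with at least 1 read were 15 genes: MMP11, MMP12, MMP20, MMP21, MMP27, MMP28, ADAM7, ADAM18, ADAM23, ADAM29, ADAM30, ADAM33, ADAMTS8, ADAMTS18 and ADAMTS20. No read was counted in any library for MMP8, the neutrophil collagenase, MMP26, ADAM2 or ADAMTS19.

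**Figure D1:**
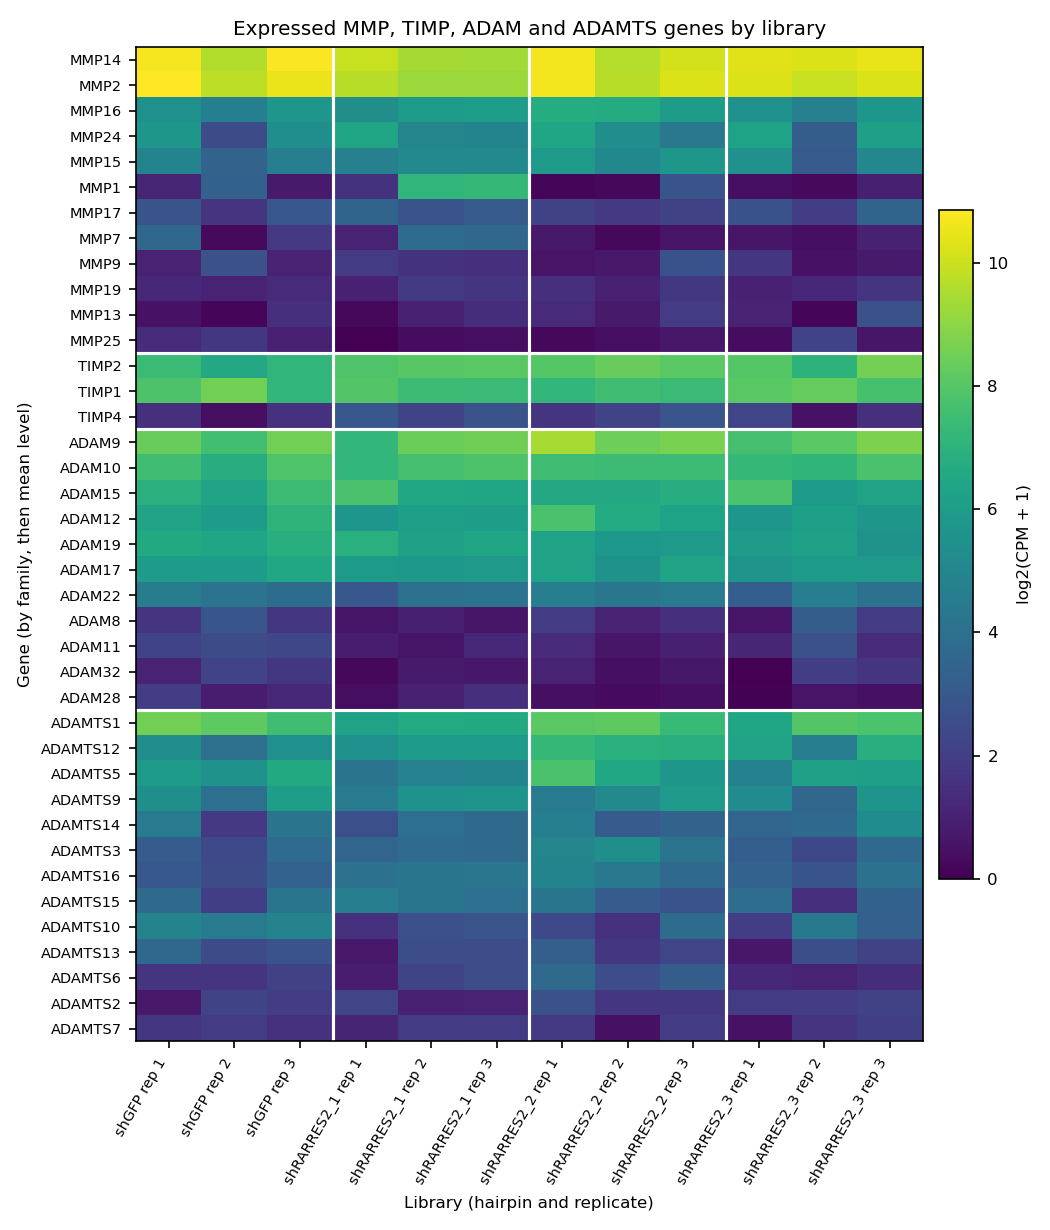
Level of the 39 expressed genes in each of the 12 libraries, as log2(CPM + 1), with genes grouped by family (rows) and libraries by hairpin (columns). MMP14 and MMP2 are the brightest rows in all libraries, and MMP1 is bright only in shRARRES2_1 replicates 2 and 3 (139.8 and 150.3 CPM).

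Per kb of exon, the membrane-type protease MMP14 and the gelatinase MMP2 had the highest levels in the control libraries, 314 CPM per kb (libraries 173 to 397) and 285 CPM per kb (libraries 179 to 377); the ranges of these neighbours overlap, so their order is not settled. TIMP1 was next by its mean at 161 CPM per kb (libraries 92.5 to 243), a range that overlaps both, so its place is not settled either; in shGFP replicate 2 it was above them. ADAM9 had 42.8 CPM per kb (libraries 27.7 to 54.1) and ADAMTS1 39.7 CPM per kb (libraries 26.05 to 52.9), again overlapping each other but below every control value of the first 3 genes. TIMP2 followed at 23.6 CPM per kb (libraries 16.3 to 29.7) and ADAM15 at 18.8 CPM per kb (libraries 12.3 to 26.3). The sheddases ADAM10 and ADAM17 stood at 10.8 and 6.65 CPM per kb. The gelatinase MMP9 had only 1.10 CPM per kb (libraries 0.456 to 2.38). ADAM28 was last at 0.180 CPM per kb (libraries 0.0834 to 0.310). Together the 65 genes took 0.274% to 0.595% of the summed CPM of a library, and MMP14 with MMP2 made up 80.3% to 97.8% of the summed MMP signal.

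Whether RARRES2 knockdown was accompanied by altered expression of these genes was tested for each hairpin against shGFP, in 1 limma fit over 15236 genes with Benjamini-Hochberg adjustment. The 3 comparisons share the same 3 control libraries. No member passed an adjusted p of 0.05 in any of them. The count was 0 of 39 with shRARRES2_1, where 0.171% of all genes passed, 0 of 39 with shRARRES2_2 (0.0459% of all genes), 0 of 39 with shRARRES2_3 (0.00656%) and 0 of 39 for the mean of the 3 hairpins (0.00656%). The F-test between the 3 hairpins called 0 of 39 members, beside 0.249% of all genes. edgeR on the recovered reads called 0 members in these 5 comparisons, where it called 0.0197%, 0.0263%, 0.00656%, 0.00656% and 0.131% of all genes. DESeq2 called 3 members with shRARRES2_1 (ADAMTS1, ADAMTS10 and ADAM11; 3.26% of all genes), 5 with shRARRES2_2 (ADAMTS3, ADAMTS12, ADAMTS16, ADAM11 and MMP7; 2.28%), 0 with shRARRES2_3 (0.105%), 0 for the mean (0.866%) and 5 in the test between hairpins (ADAMTS3, ADAMTS5, ADAMTS6, MMP1 and MMP7; 4%).

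At an unadjusted limma p under 0.05 there were 12 of 39 members with shRARRES2_1 (30.8%, against 16.7% of all genes), 13 with shRARRES2_2 (33.3%, against 13.7%), 4 with shRARRES2_3 (10.3%, against 3.32%) and 11 for the mean (28.2%, against 12.6%). For the test between hairpins it was 8 (20.5%, against 11%). Counted by overlap alone, all 3 libraries of shRARRES2_1 lay on 1 side of all 3 controls for 13 members (33.3%), close to the 32% of all genes. With shRARRES2_2 it was 14 members (35.9%, against 28.1%) and with shRARRES2_3 it was 5 (12.8%, against 6.66%). Adding a log2 change of at least 1 in size left 10 members with shRARRES2_1 (25.6%, against 11.7%), 10 with shRARRES2_2 (25.6%, against 7.89%) and 1 with shRARRES2_3 (2.56%, against 0.722%). The median log2 change over members was -0.03, 0.01 and -0.24 for the 3 hairpins, beside 0.04, 0.07 and 0.00 over all genes. Members also varied more between replicates, with a median SD within groups of 0.59 on the log2 scale against 0.45 over all genes.

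**Figure D2:**
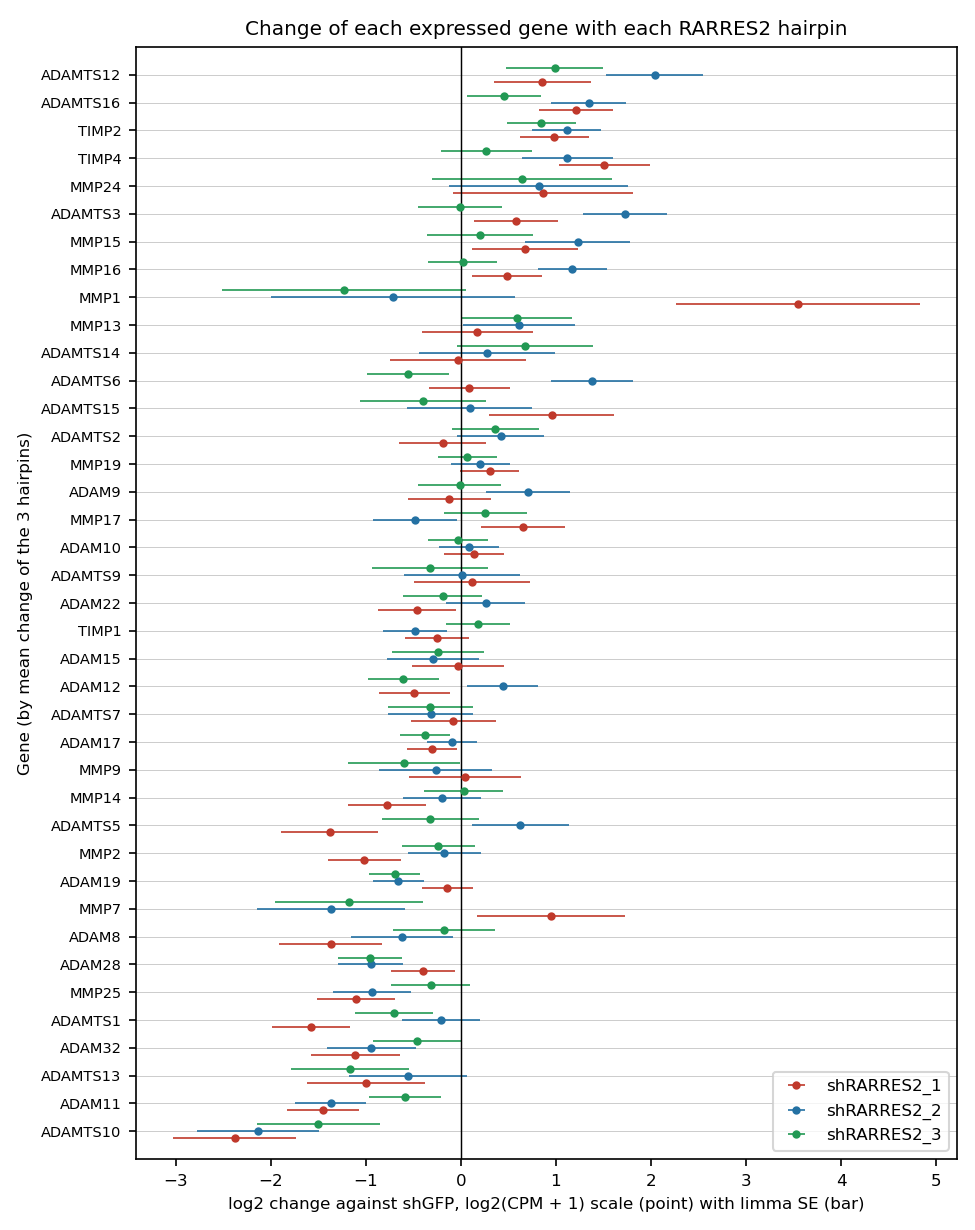
Change of each of the 39 expressed genes against shGFP on the log2(CPM + 1) scale (points) with the limma standard error (bars), for the 3 hairpins in separate colours. ADAMTS10 lies lowest in the mean of the hairpins (-2.004) and ADAMTS12 highest (1.29), and the widest bars belong to MMP1 and MMP24.

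Among the inhibitors, TIMP2 had a higher mean with each hairpin than with shGFP, TIMP1 did not move in 1 direction, TIMP4 was low and higher with 2 hairpins, and TIMP3 was all but silent. None of these differences passed the adjusted test. TIMP2 (ENSG00000035862.12, chromosome 17 at 78852977 to 78925387, minus strand) had 168, 92.1 and 139.8 CPM with shGFP, 236, 265 and 269 with shRARRES2_1, 254, 325 and 269 with shRARRES2_2 and 254, 131 and 383 with shRARRES2_3. All libraries of shRARRES2_1 and shRARRES2_2 lay above the controls, while shRARRES2_3 replicate 2 lay inside the control range. The log2 changes were 0.98, 1.11 and 0.85 (SE 0.36 each; limma adjusted p = 0.248, 0.269 and 0.876), and 0.98 for their mean (adjusted p = 0.383). Without shRARRES2_3 replicate 2 the mean change was 1.12 with adjusted p = 0.0412, within a range of 0.0412 to 0.570 over the alternatives.

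TIMP1, the secreted inhibitor of most MMPs and of ADAM10, had 227, 374 and 143 CPM with shGFP, 247, 171 and 169 with shRARRES2_1, 145, 184 and 166 with shRARRES2_2 and 268, 316 and 209 with shRARRES2_3. All 9 hairpin libraries lay inside the range of the controls, and the log2 changes of -0.25, -0.48 and 0.18 had adjusted p = 0.684, 0.522 and 0.911. Taken within a library, the quotient of TIMP2 to TIMP1 CPM was 0.739, 0.246 and 0.981 with shGFP and 1.75, 1.76 and 1.62 with shRARRES2_2, so these groups did not overlap. It was 0.958, 1.55 and 1.59 with shRARRES2_1 and 0.948, 0.414 and 1.83 with shRARRES2_3, where both overlapped the control; the quotient was not tested.

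TIMP4 had 1.78, 0.312 and 1.95 CPM with shGFP, 6.74, 3.73 and 5.78 with shRARRES2_1, 2.17, 3.75 and 6.37 with shRARRES2_2 and 3.77, 0.449 and 1.72 with shRARRES2_3. Every library of shRARRES2_1 and shRARRES2_2 was above every control, with log2 changes of 1.51 and 1.12 (SE 0.48; adjusted p = 0.216 and 0.343). Of its exon bases, 10.3% are shared with SYN2 on the other strand, and whether counting was by strand is not known here. TIMP3, the matrix-bound inhibitor that also blocks ADAM17 and ADAMTS5, had 0, 2.13 and 0.355 CPM with shGFP, 0.478, 0.485 and 0.191 with shRARRES2_1, 0.106, 0.119 and 0.174 with shRARRES2_2 and 0.522, 0.249 and 0.0932 with shRARRES2_3. Its single value over 1 CPM belonged to shGFP replicate 2, the library with the most keratinocyte marker signal; the part of other cells in this was not tested. In bulk RNA, fewer cells of a type and less RNA per cell cannot be told apart, here and below.

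The abundant MMP14 and MMP2 had their lowest group means with shRARRES2_1, and shGFP replicate 2 lay near those low values. MMP14 (ENSG00000157227.12, chromosome 14 at 22836557 to 22849027, plus strand), the collagenase anchored in the membrane that activates pro-MMP2, had 1655, 770.5 and 1773 CPM with shGFP, 1001, 675 and 661 with shRARRES2_1, 1653, 808 and 1116 with shRARRES2_2 and 1307, 1256 and 1465 with shRARRES2_3. Group means were 1399.6 ± 548 CPM for the control and 779 ± 193, 1192 ± 428 and 1342 ± 109 CPM for the hairpins in order (SD, n = 3 each), and the control range covered most other libraries. Its log2 change with shRARRES2_1 was -0.78 (SE 0.41, adjusted p = 0.339). For MMP2 (ENSG00000087245.12, chromosome 16 at 55389700 to 55506691, plus strand), the libraries had 1859.5, 885 and 1473 CPM with shGFP, 819, 597 and 600.4 with shRARRES2_1, 1628, 819.6 and 1266 with shRARRES2_2 and 1261, 976 and 1206 with shRARRES2_3. All 3 shRARRES2_1 libraries were below all controls, by a log2 change of -1.01 (SE 0.38, adjusted p = 0.253), and the other hairpins overlapped the control (-0.17 and -0.24).

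Of the other transmembrane members of the MMP14 type, MMP15 and MMP16 had their highest group means with shRARRES2_2. MMP15 had 28.8, 9.87 and 24.2 CPM with shGFP, 25.3, 34.6 and 34.3 with shRARRES2_1, 56.97, 32.5 and 53.1 with shRARRES2_2 and 43.99, 7.43 and 31.9 with shRARRES2_3. MMP16 had 42.8, 24.6 and 51.9 CPM with shGFP, 39.7, 59.4 and 65.5 with shRARRES2_1, 105, 103 and 60.6 with shRARRES2_2 and 43.5, 25.4 and 51.5 with shRARRES2_3. For both genes the shRARRES2_2 libraries were all above the controls, with log2 changes of 1.23 and 1.17 (SE 0.56 and 0.36; adjusted p = 0.359 and 0.255), while shRARRES2_3 was at 0.20 and 0.02. MMP24 ranged from 4.83 to 85.9 CPM, and its 2 lowest libraries, shGFP replicate 2 (4.83 CPM) and shRARRES2_3 replicate 2 (8.23 CPM), belong to different groups. It shares 18.1% of its exon bases with MMP24OS on the other strand. The lipid-anchored MMP17 and MMP25 ranged over 2.08 to 10.3 and 0 to 3.54 CPM. MMP25 was below the controls in all libraries of shRARRES2_1 and shRARRES2_2, at 0, 0.291 and 0.382 and 0.159, 0.357 and 0.611 CPM against 1.63, 2.39 and 0.976. Its log2 change with shRARRES2_1 was -1.10 (SE 0.42, adjusted p = 0.253). The antisense gene MMP25-AS1 shares 35.2% of its exon bases and had a mean of 6.67 CPM, above that of MMP25 itself (0.932 CPM). MMP19 ranged over 0.985 to 2.57 CPM and MMP9 over 0.449 to 5.76 CPM, with groups that overlapped the control. MMP19 shares 17.4% of its exon bases with TMEM198B on the other strand, which had a mean of 5.10 CPM, above that of MMP19 itself (1.60 CPM). MMP9 shares 18.4% with SLC12A5-AS1, which had a mean of 0.0416 CPM.

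MMP1 was the member most uneven between replicates. It and its neighbours on chromosome 11 are described because of their values, which were seen first. The 9 genes of the cluster lie within 102520508 to 102955734 (435 kb): MMP7, MMP20, MMP27, MMP8, MMP10, MMP1, MMP3, MMP12 and MMP13, of which MMP7, MMP1 and MMP13 were expressed. MMP1, the interstitial collagenase (ENSG00000196611.4, chromosome 11 at 102789920 to 102798160, minus strand), had 1.26, 9.41 and 0.710 CPM with shGFP, 2.02, 139.8 and 150.3 with shRARRES2_1, 0.106, 0.178 and 6.02 with shRARRES2_2 and 0.348, 0.1995 and 0.932 with shRARRES2_3. The 2 nearly alike shRARRES2_1 libraries held 2886 and 3149 reads of MMP1, and the third library of that hairpin held 38 reads, a level inside the control range. The top of that range was shGFP replicate 2, at 9.41 CPM, and the level of 2.02 CPM was above the other controls. The log2 change with shRARRES2_1 was 3.55 (SE 1.28, limma adjusted p = 0.245). Without shRARRES2_1 replicate 1 it was 5.41 with adjusted p = 0.0296, but that fit kept only the 2 nearly alike libraries of this hairpin. Whether that pair counts as 2 separate cultures is not known. Without replicate 3 the log2 change was 2.59 with adjusted p = 0.353. Over all alternatives adjusted p ran from 0.0296 to 0.379. MMP1 lay below 1 CPM in 5 of the other 6 hairpin libraries.

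The 2 stromelysins did not behave alike. MMP10 had 0.0742, 0.520 and 0.0887 CPM with shGFP, 0.159, 2.81 and 4.01 with shRARRES2_1, 0, 0 and 0.567 with shRARRES2_2 and 0, 0.0998 and 0.140 with shRARRES2_3, so that its 2 values over 1 CPM came from the same libraries as the high MMP1 values (58 and 84 reads). MMP3 had 0.148, 5.09 and 0.0444 CPM with shGFP, 0.0531, 0.533 and 0.764 with shRARRES2_1, 0, 0.297 and 1.79 with shRARRES2_2 and 0, 0.1995 and 0.0932 with shRARRES2_3, with its highest value in shGFP replicate 2 (98 reads) and the next in shRARRES2_2 replicate 3 (41 reads). The gelatinase MMP9, which lies on chromosome 20, had its 2 highest values in the same libraries, at 5.56 and 5.76 CPM. MMP7, matrilysin, had 11.1, 0.208 and 2.44 CPM with shGFP, 1.12, 13.3 and 10.8 with shRARRES2_1, 0.688, 0.178 and 0.480 with shRARRES2_2 and 0.580, 0.349 and 1.02 with shRARRES2_3. It was high in shRARRES2_1 replicates 2 and 3 and also in shGFP replicate 1, and its log2 changes were 0.95, -1.36 and -1.18 (SE 0.78; adjusted p = 0.5003, 0.444 and 0.876). MMP13, the third collagenase, had 0.445, 0.104 and 1.73 CPM with shGFP, 0.159, 1.02 and 1.67 with shRARRES2_1, 1.43, 0.713 and 2.75 with shRARRES2_2 and 1.10, 0.0998 and 5.40 with shRARRES2_3. Its highest library was thus shRARRES2_3 replicate 3, and the libraries with high MMP1 lay inside its control range. MMP12, MMP20 and MMP27 had at most 2 reads in any library.

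**Figure D3:**
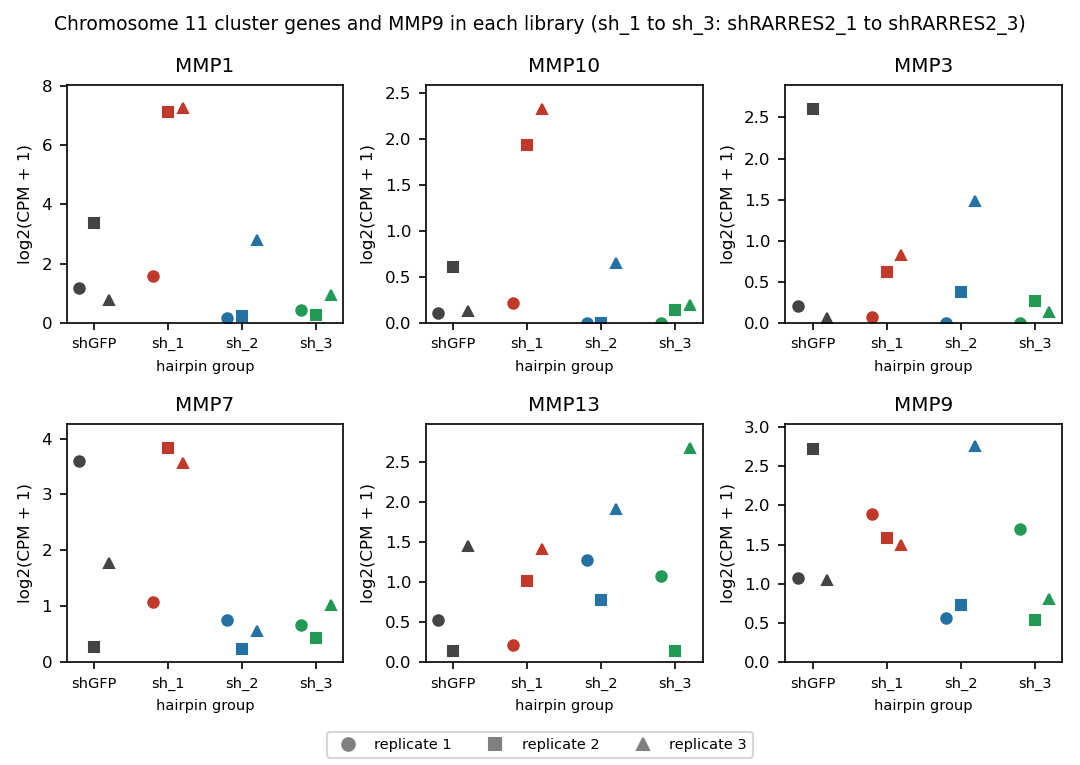
Level of MMP1, MMP10, MMP3, MMP7 and MMP13 of the chromosome 11 cluster, and of MMP9 for comparison, as log2(CPM + 1) in each library; each panel has its own axis. MMP1 and MMP10 have their 2 highest values in shRARRES2_1 replicates 2 and 3, and MMP3 and MMP9 in shGFP replicate 2 and shRARRES2_2 replicate 3.

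Most expressed ADAM genes had a log2 change below 0 with each hairpin, and neither limma nor edgeR called any of them; DESeq2 called ADAM11 with shRARRES2_1 and shRARRES2_2. Of 11 expressed, 10 had a log2 change below 0 with shRARRES2_1, 7 with shRARRES2_2 and 11 with shRARRES2_3, with medians of -0.40, -0.29 and -0.38 beside 0.04, 0.07 and 0.00 over all genes. The share of all genes below 0 was not counted. As the comparisons share their controls, these counts are not independent, and some changes were close to 0. The main sheddases had small log2 changes. ADAM10, which cuts Notch receptors and cadherins, had 183, 107 and 236 CPM with shGFP, 140.1, 199 and 224 with shRARRES2_1, 185, 173 and 174 with shRARRES2_2 and 149.9, 135 and 214 with shRARRES2_3. Its log2 changes were 0.14, 0.09 and -0.03 (SE 0.32), smaller than that error. ADAM17, which releases TNF and ligands of the EGF receptor, ranged over 46.7 to 90.7 CPM. Its shRARRES2_1 and shRARRES2_3 libraries were all below the controls by log2 changes of -0.30 and -0.38 (SE 0.26; adjusted p = 0.529 and 0.876); 12.3% of its exon bases are shared with IAH1 on the other strand.

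ADAM9 had 323, 191 and 374 CPM with shGFP, 144, 345 and 363 with shRARRES2_1, 703, 354 and 406 with shRARRES2_2 and 201, 268 and 421 with shRARRES2_3, and its highest library was shRARRES2_2 replicate 1. ADAM15 had 118, 81.02 and 173 CPM with shGFP, 212, 86.7 and 84.02 with shRARRES2_1, 91.99, 91.7 and 107 with shRARRES2_2 and 219.7, 58.9 and 76.7 with shRARRES2_3; the 2 highest values belong to replicate 1 of shRARRES2_1 and of shRARRES2_3, libraries that also lay close to each other over all genes. For ADAM12, a protease of muscle and tumour stroma, the libraries had 80.3, 61.8 and 134 CPM with shGFP, 51.1, 69.8 and 66.6 with shRARRES2_1, 210.4, 103 and 76.9 with shRARRES2_2 and 50.8, 68.3 and 53.4 with shRARRES2_3. These 3 genes overlapped the control with each hairpin. ADAM19 had 96.3, 85.95 and 114 CPM with shGFP, 118, 72.4 and 82.3 with shRARRES2_1, 76.3, 54.2 and 57.3 with shRARRES2_2 and 63.3, 73.2 and 47.5 with shRARRES2_3. It was below all controls in every library of shRARRES2_2 and shRARRES2_3, with log2 changes of -0.66 and -0.69 (SE 0.27; adjusted p = 0.321 and 0.876).

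Of the scarcer ADAM genes, ADAM11, which lacks the catalytic residues and is known from neurons, had 3.56, 4.57 and 4.04 CPM with shGFP, 0.797, 0.533 and 1.29 with shRARRES2_1, 1.43, 0.594 and 0.916 with shRARRES2_2 and 1.22, 5.49 and 1.63 with shRARRES2_3. All 6 libraries of shRARRES2_1 and shRARRES2_2 were below all controls, and shRARRES2_3 replicate 2 was above them. Its log2 changes were -1.45, -1.37 and -0.59 (SE 0.38; adjusted p = 0.147, 0.217 and 0.876). Left out of the fit, that 1 library brought the first pair of adjusted p-values to 0.0288 and 0.0424 and the mean of the hairpins to 0.0334, while without shGFP replicate 2 as well they were 0.0899, 0.111 and 0.129. ADAM8, best known from leukocytes, had 2.23, 6.44 and 2.31 CPM with shGFP, 0.531, 0.921 and 0.573 with shRARRES2_1, 2.70, 1.13 and 1.79 with shRARRES2_2 and 0.580, 8.18 and 2.79 with shRARRES2_3, with a log2 change of -1.37 with shRARRES2_1 (SE 0.54, adjusted p = 0.260). ADAM32 had 1.11, 3.53 and 2.40 CPM with shGFP, 0.159, 0.727 and 0.621 with shRARRES2_1, 1.11, 0.357 and 0.611 with shRARRES2_2 and 0, 3.04 and 2.10 with shRARRES2_3, and its log2 change with shRARRES2_1 was -1.11 (SE 0.47, adjusted p = 0.274). For ADAM8 and ADAM32, as for ADAM11, shRARRES2_3 replicate 2 was the highest of the 9 hairpin libraries. ADAM28 had 2.90, 0.779 and 1.38 CPM with shGFP, 0.319, 0.969 and 1.77 with shRARRES2_1, 0.370, 0.238 and 0.349 with shRARRES2_2 and 0.0580, 0.499 and 0.419 with shRARRES2_3. Its shRARRES2_2 and shRARRES2_3 libraries, of 1 to 10 reads each, were all below the controls, with log2 changes of -0.95 and -0.96 (SE 0.34; limma adjusted p = 0.290 and 0.876). ADAM22, a receptor of secreted LGI proteins with no protease activity, ranged over 6.69 to 24.2 CPM with overlapping groups.

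ADAMTS10 stood out among the ADAMTS genes, because it was the single member whose 9 hairpin libraries were all below its 3 controls. This is 1 of 39 members (2.56%), and 0.729% of all genes had the same pattern. That share is for the lower direction only, and genes with all 9 hairpin libraries above the controls were not counted. ADAMTS10 (ENSG00000142303.13, chromosome 19 at 8580242 to 8610735, minus strand) encodes a secreted protein that binds fibrillin microfibrils and is mutated in Weill-Marchesani syndrome. It had 28.1, 21.3 and 27.8 CPM with shGFP, 1.91, 5.33 and 6.25 with shRARRES2_1, 4.28, 1.90 and 13.4 with shRARRES2_2 and 2.90, 19.95 and 9.08 with shRARRES2_3. Group means were 25.7 ± 3.84 CPM for the control and 4.50 ± 2.29, 6.54 ± 6.09 and 10.6 ± 8.63 CPM for the hairpins in order (SD, n = 3 each). The hairpin libraries differed widely, and shRARRES2_3 replicate 2, at 19.95 CPM, was just under the lowest control. The log2 changes were -2.38, -2.13 and -1.50 (SE 0.65 each; limma adjusted p = 0.162, 0.242 and 0.876), and -2.004 for their mean (SE 0.53, adjusted p = 0.383). Over the alternatives the change of the mean lay between -2.32 and -1.79 and its adjusted p between 0.0442, without shRARRES2_3 replicate 2, and 0.551. DESeq2 gave adjusted p = 0.0225 for shRARRES2_1.

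ADAMTS6, the closest relative of ADAMTS10, had 2.08, 2.18 and 3.33 CPM with shGFP, 0.850, 3.68 and 4.92 with shRARRES2_1, 12.6, 4.93 and 8.24 with shRARRES2_2 and 1.33, 1.15 and 1.68 with shRARRES2_3. It was above the controls in all shRARRES2_2 libraries (log2 change 1.38, SE 0.43, adjusted p = 0.256) and below them in all shRARRES2_3 libraries (-0.55, adjusted p = 0.876). The F-test between hairpins gave adjusted p = 0.152, the smallest among members.

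Of the ADAMTS enzymes that cut versican and aggrecan, ADAMTS1 and ADAMTS5 had their lowest group means with shRARRES2_1. ADAMTS1 (ENSG00000154734.14, chromosome 21 at 26835747 to 26845409, minus strand) had 373, 284 and 184 CPM with shGFP, 74.9, 100.2 and 96.3 with shRARRES2_1, 269, 286 and 164 with shRARRES2_2 and 84.3, 247 and 218 with shRARRES2_3. Every shRARRES2_1 library was below the controls, and replicate 1 of shRARRES2_3, at 84.3 CPM, was as low as they were. The log2 change with shRARRES2_1 was -1.57 (SE 0.41; limma adjusted p = 0.147, and 0.0101 by DESeq2, within 0.0101 to 0.359 over the alternatives). ADAMTS5, which lies 72.5 kb from ADAMTS1 on chromosome 21, had 59.5, 46.04 and 94.7 CPM with shGFP, 17.3, 27.4 and 28.8 with shRARRES2_1, 213, 87.1 and 52.1 with shRARRES2_2 and 26.4, 72.6 and 68.6 with shRARRES2_3. Its shRARRES2_1 libraries were again all below the controls, with a log2 change of -1.38 (SE 0.51, adjusted p = 0.249), whereas shRARRES2_2 replicate 1 had the highest value of all. ADAMTS9 ranged over 11.1 to 65.6 CPM and ADAMTS15 over 1.85 to 23.95 CPM with overlapping groups, and ADAMTS4 did not exceed 1.75 CPM.

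ADAMTS12 and ADAMTS16 had higher mean levels with each hairpin. ADAMTS12 (ENSG00000151388.10, chromosome 5 at 33523535 to 33892192, minus strand), which cuts cartilage oligomeric matrix protein as ADAMTS7 does, had 40.01, 15.3 and 42.9 CPM with shGFP, 43.7, 61.01 and 61.7 with shRARRES2_1, 149, 120.2 and 111 with shRARRES2_2 and 80.04, 23.7 and 113 with shRARRES2_3. All libraries of shRARRES2_1 and shRARRES2_2 were above all controls, those of shRARRES2_2 far above, and shRARRES2_3 replicate 2 was inside the control range. The log2 changes were 0.86, 2.04 and 0.99 (SE 0.51; adjusted p = 0.382, 0.192 and 0.876). For shRARRES2_2, adjusted p ran from 0.0147 with DESeq2 to 0.564 over the alternatives, and it was 0.0391 without shRARRES2_3 replicate 2. ADAMTS16 had 7.05, 4.78 and 9.54 CPM with shGFP, 16.2, 17.4 and 18.1 with shRARRES2_1, 29.04, 19.4 and 12.1 with shRARRES2_2 and 9.68, 6.04 and 15.8 with shRARRES2_3. Its shRARRES2_1 and shRARRES2_2 libraries were all above the controls, by log2 changes of 1.21 and 1.34 (SE 0.39; adjusted p = 0.220 and 0.228). ADAMTS7 stayed at 0.416 to 3.03 CPM.

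Of the procollagen N-proteinases ADAMTS2, ADAMTS3 and ADAMTS14, ADAMTS3 was apart from the control with 1 hairpin. ADAMTS3, which also processes the lymphangiogenic factor VEGFC, had 8.02, 4.21 and 12.8 CPM with shGFP, 10.6, 12.9 and 12.4 with shRARRES2_1, 29.6, 41.3 and 17.2 with shRARRES2_2 and 8.46, 4.19 and 11.97 with shRARRES2_3. All shRARRES2_2 libraries were above the controls (log2 change 1.73, SE 0.44, limma adjusted p = 0.198; 0.0179 by DESeq2), and the shRARRES2_3 values matched the control values closely (-0.01). ADAMTS2 ranged over 0.668 to 5.55 CPM and ADAMTS14 over 2.44 to 37.4 CPM with overlapping groups. ADAMTS13, the protease of von Willebrand factor, ranged over 0.638 to 11.6 CPM and had its 2 lowest values in replicate 1 of shRARRES2_1 and of shRARRES2_3.

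**Figure D4:**
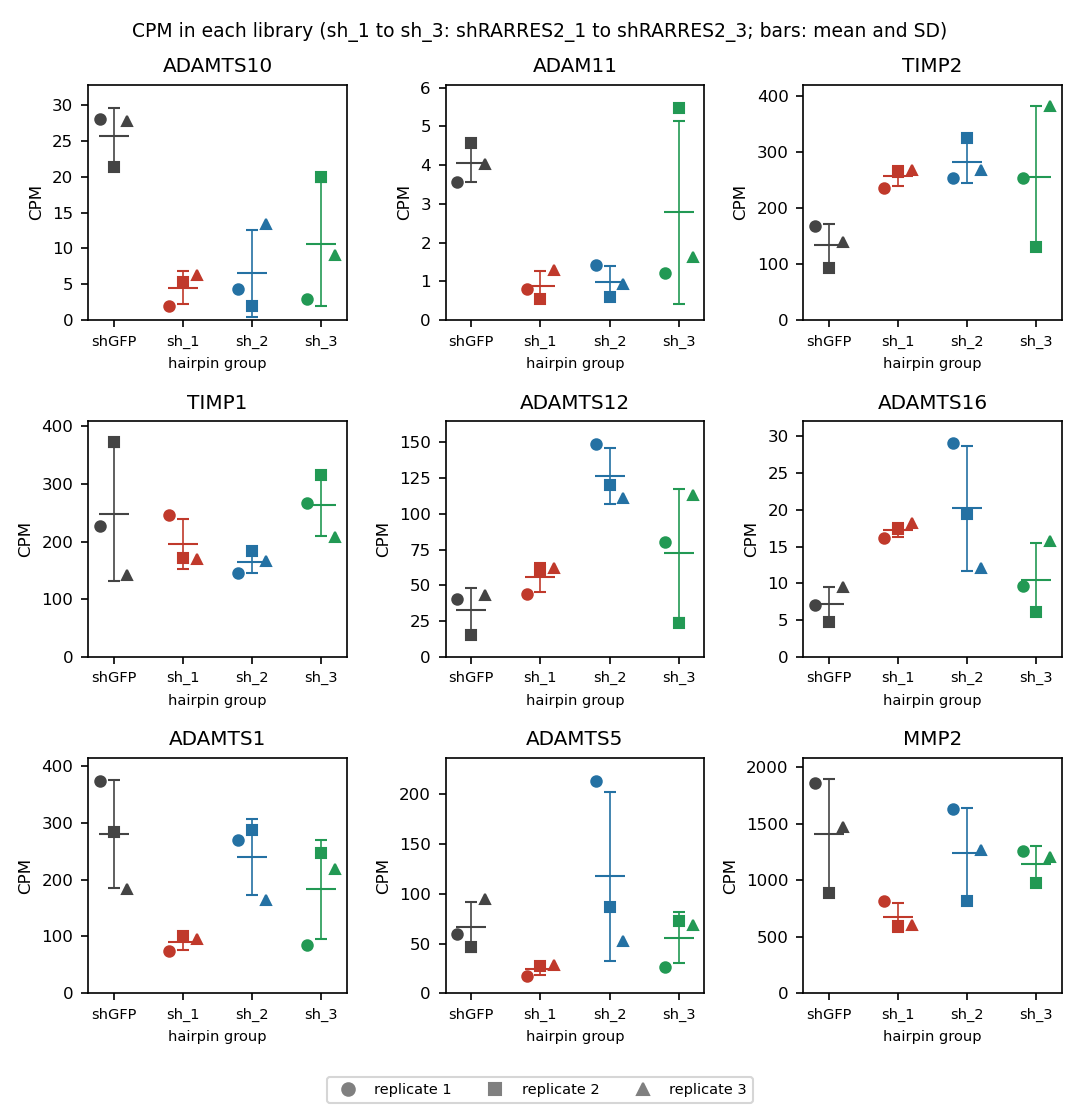
CPM of 9 genes in each library (points, with a symbol for each replicate number) with the group mean and SD (horizontal and vertical bars). In ADAMTS10, ADAM11, TIMP2, ADAMTS12 and ADAMTS16 the square of the third RARRES2 hairpin (replicate 2) lies nearest to the shGFP values or among them.

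The likeness of libraries over the 39 genes followed the library pairs named above more than the hairpins. The mean absolute difference in log2(CPM + 1) over the 39 genes was 0.147 between shRARRES2_1 replicates 2 and 3. It was 0.421 between shRARRES2_1 replicate 1 and shRARRES2_3 replicate 1, and 0.464 between shGFP replicate 2 and shRARRES2_3 replicate 2, although each of these pairs joins different hairpins. Within groups it ran from 0.461 to 1.05 in the controls, from 0.147 to 0.896 in shRARRES2_1, from 0.632 to 0.750 in shRARRES2_2, and from 0.709 to 1.08 in shRARRES2_3. Over all genes tested the same 2 cross-group pairs differed by 0.363 and 0.319, so the closeness is not particular to these families. In shRARRES2_3 replicate 2, 22 of the 39 members lay inside the range of the controls (56.4%, against 54.9% of all genes), the most of any hairpin library. In shRARRES2_1 replicate 1 it was 12 (30.8%, against 27.3%). Without shRARRES2_3 replicate 2, limma called 1 of 38 members with shRARRES2_1 (2.63%, against 1.3% of all genes), 2 with shRARRES2_2 (5.26%, against 0.793%) and 4 for the mean of the hairpins (10.5%, against 2.39%); the shares of all genes called were also above those with every library in. Without shRARRES2_1 replicate 1 it called 1 of 39 members, MMP1, with shRARRES2_1 (2.56%, against 0.178%) and in the test between hairpins (2.56%, against 0.369%). That fit kept only the 2 nearly alike libraries of shRARRES2_1. With shGFP replicate 2 and shRARRES2_3 replicate 2 both left out, no member was called, and ADAMTS10 had a log2 change of -2.32 for the mean of the hairpins (adjusted p = 0.157).

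**Figure D5:**
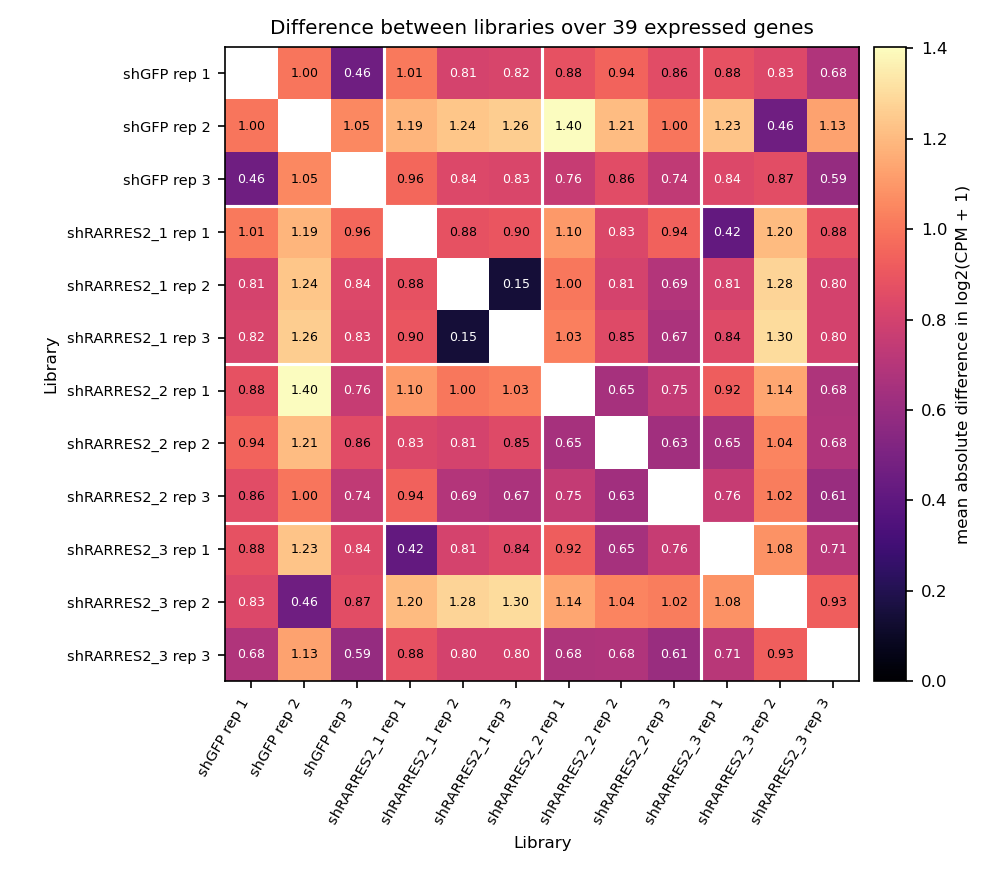
Mean absolute difference in log2(CPM + 1) over the 39 expressed genes for each pair of libraries (number and colour; darker is more alike), with white lines between hairpin groups. Besides shRARRES2_1 replicates 2 and 3 (0.147), the darkest cells include 2 that join libraries of different groups (0.421 and 0.464).

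Genes that act with these families were read from 5 lists. Of 23 regulators tested (inhibitors, activating convertases, chaperones and clearance receptors), limma and edgeR called none in any comparison, and the median log2 changes were 0.23, 0.23 and -0.09 for the 3 hairpins. DESeq2 called 2 of them, TSPAN15 and RHBDF1, with shRARRES2_1, where it called 3.26% of all genes. BSG, the surface glycoprotein that induces MMPs, had means of 846 ± 123, 1101 ± 671, 764 ± 37.4, 1148 ± 576 CPM for shGFP and the 3 hairpins in order. LRP1, the receptor that clears several MMPs and ADAMTS enzymes, had means of 417 ± 175, 242 ± 111, 225 ± 147, 230.3 ± 119.8 CPM. Its log2 changes were -0.83, -0.9997 and -0.89, with limma adjusted p = 0.418, 0.432 and 0.876.

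Of 26 surface proteins shed by ADAM10 or ADAM17, limma called 1 with shRARRES2_2, where it called 0.0459% of all genes, and none with the other 2 hairpins. This was HBEGF, a ligand of the EGF receptor released by ADAM17, with means of 4.36 ± 1.02, 7.01 ± 1.69, 21.3 ± 5.88, 3.91 ± 0.287 CPM in the same order. It rose with shRARRES2_2 by a log2 of 2.04 (adjusted p = 0.0387), and the F-test between hairpins gave adjusted p = 0.0273. The call with shRARRES2_2 was lost in edgeR and when most single libraries were left out, and was made by DESeq2. Between hairpins, HBEGF was called by limma, edgeR and DESeq2, which called 0.249%, 0.131% and 4% of all genes there. CD44 had means of 364 ± 41.5, 768 ± 194, 601 ± 336, 455 ± 254 CPM (adjusted p = 0.323, 0.655 and 0.951), and the list's medians were 0.32, 0.24 and -0.16.

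Of 16 matrix substrates, limma and edgeR called none. DESeq2 called COL5A1 and BGN with shRARRES2_1 (3.26% of all genes) and BGN, TNC and FN1 between hairpins (4% of all genes). FN1, fibronectin, had means of 15611 ± 11961, 6812 ± 659, 19941 ± 11264, 5816 ± 3386 CPM, and TNC, tenascin C, of 299 ± 218, 788 ± 183, 557 ± 150.1, 139 ± 97.7 CPM; the medians of the list were -0.15, -0.01 and -0.33. Of 15 AP-1 and ETS factors, limma and edgeR called none, and DESeq2 called JUN and ATF3 with shRARRES2_2 (2.28% of all genes); the medians were -0.23, -0.45 and -0.26. JUN had means of 638 ± 131, 362 ± 86.6, 268 ± 77.3, 372 ± 139 CPM with log2 changes of -0.83, -1.27 and -0.83 (limma adjusted p = 0.286, 0.225 and 0.876), and FOSL1 of 123 ± 29.4, 266 ± 34.1, 277 ± 194, 145 ± 70.97 CPM. Of 12 cytokines known to raise MMP genes, limma and edgeR called none, and DESeq2 called TGFB2 with shRARRES2_1 (3.26% of all genes); the medians were 0.10, 0.06 and -0.64. CXCL8 had means of 331 ± 322, 340.0 ± 218, 666 ± 1025, 127 ± 176 CPM, with an SD near or above the mean in 3 of the 4 groups.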

How the data were processed

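RNA was sequenced from 12 libraries of 786-O cells. The submitters' processing notes name the aligner STAR 2.5.2, the trimmer Trim Galore 0.6.1, CASAVA and edgeR, and the build hg38 (GRCh38). The sources used here give neither the annotation counted nor whether counting was by strand. The authors deposited 1 value per gene and library, a depth-scaled signal that their file calls CPM. The deposited columns sum to 8.685e+05 to 1.269e+06, so the values are unlike plain CPM, which the test design had assumed. The choice of test was not altered. All values were whole multiples of 1 read (100% at a tolerance of 1e-06), and dividing by it gave the reads for each gene. Reads lack molecular identifiers, so the floor of 3 reads covers counting error only.

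Gene positions and exon lengths came from GENCODE 29 (GRCh38, 1-based), which held 58261 of the 58381 identifiers; promoter sequences came from RefSeq (GRCh38.p14). Genes with 1 CPM in at least 3 of 12 libraries were tested on log2(CPM + 1), a scale that understates changes of low genes, with limma 3.58.1 in R 4.3.3, all groups in 1 fit, a trend of variance on the mean, and Benjamini-Hochberg adjustment at 0.05. edgeR 4.0.16 (quasi-likelihood) and DESeq2 1.42.0 on the recovered reads were alternatives, with other pseudocounts, filters, scalings and left-out libraries. The fit was tested on simulated data. Groups and replicate numbers came from the sample titles. Same-numbered libraries of different groups deviated together by more than 0.1 in 11 of 18 pairs (correlations -0.193 to 0.754). What libraries of 1 number share is not in the labels. The main fit did not take the numbers as pairs, and a fit with the number as a block was an alternative. Members, lists and tests were chosen with earlier results of these data known. Per-library levels are given for members apart from the control with a log2 change of at least 1 in size, the 12 with the highest mean CPM and the TIMP genes; other members were chosen after their values were seen. From the other lists, called genes and then those with the highest CPM were eligible. Python 3.11.15, pandas 2.3.3 and matplotlib 3.10.9 were used for tables and figures.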

Additional observations from a re-analysis of the deposited data

Results flagged for a closer look

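ADAMTS6 was singled out because every shRARRES2_2 library lay above the 3 controls and every shRARRES2_3 library below them. The log2 changes of these hairpins differ by 1.93. The difference between these 2 hairpins alone was not tested. The F-test over the 3 hairpins gave limma adjusted p = 0.152 for this gene, and DESeq2 called it in that comparison.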

How the results depend on the processing

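The count of members called was 0 in each comparison under all pseudocounts, filters, scalings and spread estimates tried, under edgeR, with shRARRES2_1 replicates 2 and 3 averaged, and without shGFP replicate 2 and shRARRES2_3 replicate 2 together. With only the 2 groups compared, a fit made for each hairpin alone, it was 0 for each of the 3. It was also 0 with the replicate number as a block. Whether the numbers pair the libraries is not in the labels. Over all genes, the block raised the counts at unadjusted limma p under 0.05 for the 3 hairpins. They went from 2538, 2085 and 506 to 3476, 2725 and 797. DESeq2 called 3 members with shRARRES2_1, 5 with shRARRES2_2 and 5 between hairpins. Leaving out 1 library at a time gave 0 to 1 with shRARRES2_1, 0 to 2 with shRARRES2_2, 0 to 0 with shRARRES2_3, 0 to 4 for the mean of the hairpins and 0 to 1 between hairpins. The calls came from leaving out shRARRES2_3 replicate 2 (ADAM11 with shRARRES2_1; ADAM11 and ADAMTS12 with shRARRES2_2; ADAM11, ADAMTS10, ADAMTS12 and TIMP2 for the mean) or shRARRES2_1 replicate 1 (MMP1 with shRARRES2_1 and between hairpins). Over all genes, the first of these raised the calls from 26, 7 and 1 to 195, 119 and 358 of 15008 tested. The second kept only the 2 nearly alike libraries of shRARRES2_1. Single log2 changes were followed for the members apart from the control by a log2 change of at least 1 in size. MMP1 with shRARRES2_1 was added, and ADAMTS10, ADAM11, TIMP2, ADAMTS12 and ADAMTS16 for the mean of the hairpins. None of these reversed. Where the groups do not overlap, leaving out 1 library cannot reverse the sign, so this says little for those. Over the alternatives, 617 values stayed on their side of the threshold and 15 passed it. Expressed members numbered 46 at 1 CPM in any library and 28 at 5 CPM in 3 libraries.

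The 1 call against shGFP in the list of shed proteins (HBEGF) became 0 without a filter, with libraries rescaled, with the replicate block and in edgeR. It was also 0 with shRARRES2_1 replicates averaged and with only 2 groups fitted, and 0 to 1 when single libraries were left out. Against shGFP, DESeq2 called 2 regulators, 2 matrix proteins and 1 cytokine with shRARRES2_1 (3.26% of all genes) and 2 AP-1 or ETS factors with shRARRES2_2 (2.28%). Leaving out single libraries gave 0 to 1 for regulators and for matrix proteins and 0 to 0 for the factors and the cytokines. The cause was not tested. Depth limits genes near 1 CPM, where few reads set a value.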
